A study of Mus musculus with 8 samples.

Results

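The genes of the contractile actin program were compared between mK4 and mK3, a pair of mouse kidney cell lines. The set held 10 genes, Acta2, Tagln, Cnn1, Myl9, Tpm1, Tpm2, Mylk, Cald1, Myocd and Srf. They were taken by symbol from a count table of 55558 genes, and all 10 symbols were found. The labels describe mK4 as metanephric mesenchymal cells that have differentiated to an epithelial state, and mK3 as such cells before induction. Both lines are labelled wild type (wt) and untreated, and both grew in DMEM with 10% fetal bovine serum. Each line gave 3 RNA libraries, from total RNA depleted of ribosomal RNA, and 1 ATAC-seq library. Each group is a single cell line, and its numbered RNA libraries are not said to be separate cultures. The p-values therefore measure the spread among libraries, which may be technical.

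Contractile cells pull by sliding myosin II along actin filaments that are anchored at adhesions. In smooth muscle and myofibroblasts the filaments contain alpha smooth muscle actin (Acta2) and are covered by tropomyosins, calponin, transgelin and caldesmon, while myosin is switched on when myosin light chain kinase (Mylk) phosphorylates the regulatory light chain (Myl9). Many of these genes are transcribed under serum response factor (Srf), which binds the CArG box and works with myocardin (Myocd) or with the actin-sensing cofactors Mrtfa and Mrtfb. In the developing kidney this program marks stromal, perivascular and smooth muscle lineages, and it is also known from cultured mesenchymal cells.

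The RNA libraries held 137559391 to 152952351 counts. Within a line, libraries correlated at a Pearson r of 0.944 to 0.958 over genes on the log2 CPM scale, and between lines the r was 0.767 to 0.784. No library stood apart from its line. The labels were followed by some of their markers and not by others. Of 10 genes of kidney epithelium, all 6 that could be tested were higher in mK4, among them the cadherin gene Cdh16 at 84.2 ± 4.41 CPM in mK4 and 0 in mK3 (SD, n = 3 each). In contrast, 59, 0 and 59 counts were found for E-cadherin (Cdh1) in the mK4 libraries and none in mK3, and the epithelial keratin gene Krt18 was at 0 in all 6 libraries. Of 8 tested mesenchymal and nephron progenitor genes out of 9 listed, 5 fell, 2 rose and 1 did not pass the test. Osr1, Prrx1, Twist1, Cdh11 and Six2 fell. Six2 was at 0 in mK4 and at 0.338 ± 0.199 CPM in mK3. Eya1 rose to 187 ± 31.1 CPM in mK4, against 10.1 ± 0.818 CPM in mK3, and Vim rose 1.34-fold. Cited1, the gene not tested, was at 0.0241 ± 0.0417 CPM in mK4 and 0.0139 ± 0.0241 CPM in mK3.

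Most of the contractile actin genes were lower in mK4. Of the 9 that passed the filter on low counts, 7 fell in mK4, Mylk rose and Tpm1 did not pass the test (edgeR quasi-likelihood test, adjusted p under 0.05 over all genes). Across all tested genes, 19.5% were called lower in mK4 and 20.8% higher. Libraries of the lines did not overlap for any of the 9, which was so for 56.1% of all tested genes. The median log2 fold change over the 9 genes was −5.87, against 0.02 over all tested genes. As the middle of 9 values, this median is the value of Cnn1, whose call was lost in 7 of 11 alternative settings. Tagln, Myl9 and Tpm2 had 0 counts in every mK4 library, and 2.05% of tested genes were called lower with such a pattern. The table lists counts as low as 1, so a 0 was read as at most 3 counts in a library. Folds against such a line are lower bounds for counting error only. Libraries of a line could differ by more, as Myocd had 141, 535 and 0 counts in the mK3 libraries. In bulk RNA, fewer cells that express a gene and less RNA per cell cannot be told apart.

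**Figure D1:**
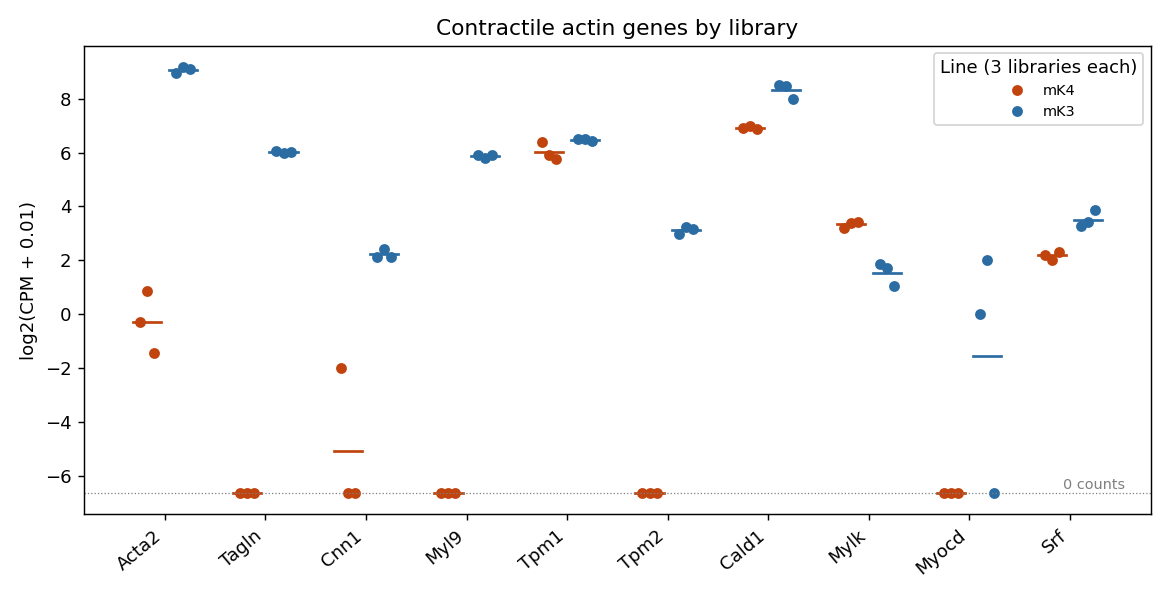
Each point is 1 library, 3 of mK4 (orange, left) and 3 of mK3 (blue, right), with log2(CPM + 0.01) on the y axis, the contractile actin genes on the x axis and a bar at the mean. Acta2, Tagln, Myl9 and Tpm2 lie far lower in mK4, where the last 3 of them sit on the dotted line of 0 counts; Mylk is higher in mK4, and the Tpm1 points of both lines lie close together.

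Promoters are shown for 4 of the genes, because their open chromatin or their CArG boxes are described with the peaks. Each sequence is the 250 bases before a start annotated by RefSeq in GRCm38.p6 (mm10), written 5′ to 3′ on the gene's own strand. Capitals mark CArG boxes with 1 mismatch in Acta2, exact CArG boxes in Myl9 and Srf, and the TEAD motif CATTCC in Mylk. They are Acta2 at chr19:34255374-34255623 (minus strand), Myl9 at chr2:156775214-156775463 (plus strand), Srf at chr17:46556163-46556412 (minus strand) and an internal start of Mylk at chr16:34784700-34784949 (plus strand).
Acta2: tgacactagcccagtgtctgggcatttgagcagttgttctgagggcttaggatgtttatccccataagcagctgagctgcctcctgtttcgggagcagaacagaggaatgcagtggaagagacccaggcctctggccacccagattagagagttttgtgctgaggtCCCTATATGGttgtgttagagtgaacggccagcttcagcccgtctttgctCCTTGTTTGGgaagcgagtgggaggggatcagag
Myl9: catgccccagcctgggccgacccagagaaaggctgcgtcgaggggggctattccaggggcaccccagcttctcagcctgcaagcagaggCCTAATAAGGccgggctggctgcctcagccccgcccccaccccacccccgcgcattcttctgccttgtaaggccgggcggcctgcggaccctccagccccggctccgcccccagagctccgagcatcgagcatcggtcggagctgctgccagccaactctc
Srf: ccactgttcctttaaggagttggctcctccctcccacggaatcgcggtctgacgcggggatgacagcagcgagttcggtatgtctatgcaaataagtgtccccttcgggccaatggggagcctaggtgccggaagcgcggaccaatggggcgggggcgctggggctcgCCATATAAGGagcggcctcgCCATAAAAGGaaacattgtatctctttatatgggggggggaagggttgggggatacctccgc
Mylk: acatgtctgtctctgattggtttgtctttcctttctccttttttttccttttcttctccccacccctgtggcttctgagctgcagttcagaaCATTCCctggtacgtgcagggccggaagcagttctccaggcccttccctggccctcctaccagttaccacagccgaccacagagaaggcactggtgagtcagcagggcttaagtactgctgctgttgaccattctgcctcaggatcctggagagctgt

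Acta2 encodes the actin isoform that defines contractile stress fibres. The gene (ENSMUSG00000035783) spans chr19:34240336-34255585. It had 110, 275 and 53 counts in the mK4 libraries, against 70583, 76371 and 69257 counts in the mK3 libraries. Every mK4 library was thus far below every mK3 library, and the mK4 libraries themselves differed several fold at this low level. As means, Acta2 was at 0.989 ± 0.744 CPM in mK4 and 542 ± 45 CPM in mK3 (SD, n = 3 each), 548-fold lower in mK4. The log2 fold change was −9.09 (SE 0.69, adjusted p = 0.000197, edgeR). It ran from −9.87 (without mK4 replicate 2, the library with the most Acta2 counts of its line) to −8.69 over left-out libraries. The other smooth muscle actin, Actg2, was at 0 in all mK4 libraries and at 35.1 ± 6.79 CPM in mK3, at least 1595-fold lower.

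Among the other actins, the ubiquitous Actb did not pass the test, at 690 ± 18.0 CPM in mK4 and 746 ± 24.4 CPM in mK3. Actg1, the second cytoplasmic actin, fell to 61.0 ± 3.43 CPM in mK4, against 185 ± 7.11 CPM in mK3. Acta1, the skeletal muscle actin, was at 0 in mK4 and 0.165 ± 0.104 CPM in mK3, and the cardiac actin Actc1 was at 0 in all 6 libraries. Actin transcripts are similar over their coding parts, and the sources used here do not say how reads that match several genes were treated. The split of counts among them is therefore uncertain.

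The proteins that coat the actin filament were next compared. Tagln, a calponin-like actin bundler also called SM22, had 0 counts in the 3 mK4 libraries and 9462, 8394 and 8032 counts in the mK3 libraries. It was at least 2941-fold lower in mK4 (adjusted p = 1.73e-05, edgeR). Its span at chr9:45929628-45936058 overlaps Pcsk7 at an end, and no source used here gives the strand setting of the counting. The libraries of each line were close to each other, with 64.7 ± 1.21 CPM in mK3. Cnn1, the smooth muscle calponin that restrains actomyosin, had 33, 0 and 0 counts in mK4 and 627, 703 and 545 counts in mK3. That made 0.0806 ± 0.140 CPM in mK4 and 4.69 ± 0.540 CPM in mK3, with a log2 fold change of −5.87 (SE 1.64, adjusted p = 0.0308, edgeR). The groups did not overlap, but a single mK4 library held all of the mK4 counts. Its adjusted p ran from 0.000639 to 0.0815 over 11 alternatives. The call was lost in 7 of them, which included leaving out any mK3 library or either of the mK4 libraries at 0.

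The relatives of these genes moved differently. Cnn2, the broadly expressed calponin, fell to 48.1 ± 3.15 CPM in mK4, against 166 ± 13.9 CPM in mK3 (log2 fold change −1.79, SE 0.09). Cnn3, the acidic calponin, rose to 64.5 ± 3.29 CPM in mK4, against 35.2 ± 4.97 CPM in mK3 (0.88, SE 0.12). Tagln2, the transgelin of non-muscle cells, was at 15.1 ± 3.56 CPM in mK4 and 17.5 ± 1.55 CPM in mK3 and did not pass the test. Tagln3, the neuronal transgelin, was at 0.156 ± 0.136 CPM in mK4 and 0.677 ± 0.249 CPM in mK3 and did not pass it either.

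Tropomyosins lie along the actin groove and set which myosins and regulators can bind. The muscle-type gene Tpm2 had 0 counts in all mK4 libraries and 1134, 1259 and 1115 counts in the mK3 libraries. It was at least 400-fold lower in mK4 (adjusted p = 9.27e-05, edgeR). Its span at chr4:43513726-43523583 overlaps the end of Car9, so that reads in the few shared bases are uncertain. Tpm1, which gives both muscle and non-muscle tropomyosins by alternative promoters and exons, had 11445, 9080 and 8142 counts in mK4, against 12896, 12113 and 10597 counts in mK3. The highest mK4 library lay just under the lowest mK3 library after scaling, at 83.8 CPM in mK4 against 85.3 CPM in mK3. Its log2 fold change was −0.43 (SE 0.17, adjusted p = 0.0907, edgeR), and it was called lower by DESeq2 and in the edgeR fit without mK4 replicate 1. Gene-level counts do not separate its isoforms.

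The other tropomyosins differed in both directions. Tpm3 rose to 49.0 ± 4.54 CPM in mK4, against 30.3 ± 0.859 CPM in mK3, and Tpm4 fell to 297 ± 4.25 CPM in mK4, against 700 ± 23.6 CPM in mK3. Among the proteins that cap filaments at their pointed ends, Tmod1 rose 9.79-fold in mK4, to 9.73 ± 1.52 CPM in mK4 against 0.994 ± 0.124 CPM in mK3. Tmod3 fell to 49.7 ± 1.5 CPM in mK4, against 82.2 ± 1.17 CPM in mK3. The smooth muscle leiomodin Lmod1, which nucleates actin filaments, was at 0 in mK4 and 1.09 ± 0.113 CPM in mK3, at least 49.7-fold lower.

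Cald1 encodes caldesmon, an actin-binding protein that inhibits myosin and has a smooth muscle and a non-muscle form. It had 16511, 19139 and 17496 counts in mK4, against 52900, 46593 and 31567 counts in mK3. All 3 mK4 libraries were below the lowest mK3 library, and the spread was wider in mK3. The means were 121 ± 4.58 CPM in mK4 and 325 ± 61.7 CPM in mK3 (log2 fold change −1.42, SE 0.15, adjusted p = 0.000656, edgeR), a smaller difference than those of Acta2, Tagln and Myl9. Gene-level counts do not separate its forms, and long noncoding RNAs that lie at Cald1, Mylk and Myocd make their counts uncertain to that extent.

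On the motor side, the light chain gene fell and the gene of its kinase rose. Myl9, the regulatory light chain of smooth muscle myosin, had 0 counts in all mK4 libraries and 8571, 7298 and 7540 counts in mK3. It was at least 2662-fold lower in mK4 (adjusted p = 2.2e-05, edgeR), with 58.5 ± 2.96 CPM in mK3. Mylk, whose kinase acts on that light chain, had 1236, 1595 and 1618 counts in mK4, against 515, 436 and 253 counts in mK3. The lowest mK4 library was above the highest mK3 library. Mylk averaged 10.1 ± 0.921 CPM in mK4 and 2.97 ± 0.822 CPM in mK3, 3.40-fold higher in mK4 (log2 fold change 1.76, SE 0.25, adjusted p = 0.0022, edgeR). The locus also makes a short product, telokin, from an internal promoter, and the counts do not separate it from the kinase.

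Other myosin II genes were present in both lines. Of 9 listed genes with Myl9 included, 4 fell, 1 rose and 4 did not pass the test. Over all tested genes, 19.5% were called lower in mK4 and 20.8% higher. The non-muscle heavy chain Myh9 fell to 339 ± 7.68 CPM in mK4, against 1001 ± 174 CPM in mK3, and the essential light chain Myl6 fell to 19.1 ± 1.73 CPM in mK4, against 39.0 ± 2.61 CPM in mK3. Myl12b, a non-muscle regulatory light chain, rose to 88.4 ± 4.43 CPM in mK4, against 65.6 ± 7.48 CPM in mK3. Its call was lost in 3 of 12 alternatives, with adjusted p from 0.00221 to 0.0599. Myl12a, the other non-muscle regulatory light chain, fell to 22.4 ± 8.15 CPM in mK4, against 72.7 ± 11.7 CPM in mK3 (log2 fold change −1.70, SE 0.27), and is named here after its values were seen. The smooth muscle heavy chain Myh11, its defining myosin, was at 0.291 ± 0.192 CPM in mK4 and 0.842 ± 0.670 CPM in mK3 and did not pass the test.

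The regulators of light chain phosphorylation were read as a list of their own. Of 17 tested genes for kinases, phosphatase subunits, small GTPases and related regulators, Mylk included, 5 fell, 2 rose and 10 were not called. Their median log2 fold change was −0.07. For comparison, 19.5% of all tested genes were called lower in mK4 and 20.8% higher. Rhoa, the GTPase that restrains myosin phosphatase, fell to 221 ± 10.7 CPM in mK4, against 542 ± 10.6 CPM in mK3. Rhob fell to 10.7 ± 0.537 CPM in mK4, against 37.5 ± 2.58 CPM in mK3, and the phosphatase catalytic subunit gene Ppp1cb to 341 ± 22.6 CPM in mK4, against 663 ± 8.02 CPM in mK3.

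Shares of family counts give the isoform make-up without regard to library scaling. They are shares of counts, not divided by transcript length, so they compare the lines and not the genes. Acta2 took 0.132 ± 0.102% of actin counts in mK4 and 35.9 ± 1.99% in mK3 (SD, n = 3 each). Tagln took 0% of transgelin counts in mK4 and 78.0 ± 1.5% in mK3, and Tagln2 took 99.1 ± 0.795% in mK4 and 21.2 ± 1.80% in mK3. Myl9 took 0% of regulatory light chain counts in mK4 and 29.9 ± 3.03% in mK3, while Myl12b took 80.0 ± 6.46% in mK4 and 33.3 ± 0.757% in mK3 and Myl12a took 20.04 ± 6.46% in mK4 and 36.8 ± 2.37% in mK3. Among calponin counts, Cnn1 took 0.0680 ± 0.118% in mK4 and 2.28 ± 0.269% in mK3. Cnn3 took 57.2 ± 1.81% in mK4 and 17.0 ± 1.36% in mK3, and Cnn2 took 42.7 ± 1.76% in mK4 and 80.7 ± 1.09% in mK3. Tpm1 took 15.9 ± 2.93% of tropomyosin counts in mK4 and 10.7 ± 0.343% in mK3, a higher share in mK4 although its CPM was not. Of 19 shares compared in 5 families, 17 did not overlap between the lines. By CPM, 56.1% of all tested genes did not overlap, and no such background was computed for shares. Shares of a family add up to a whole, so a fall of 1 gene raises the others. The 17 are therefore not separate differences. They gave an exact permutation p of 0.1 (two-sided), the smallest that 3 against 3 libraries can give, so none could pass an adjustment.

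**Figure D2:**
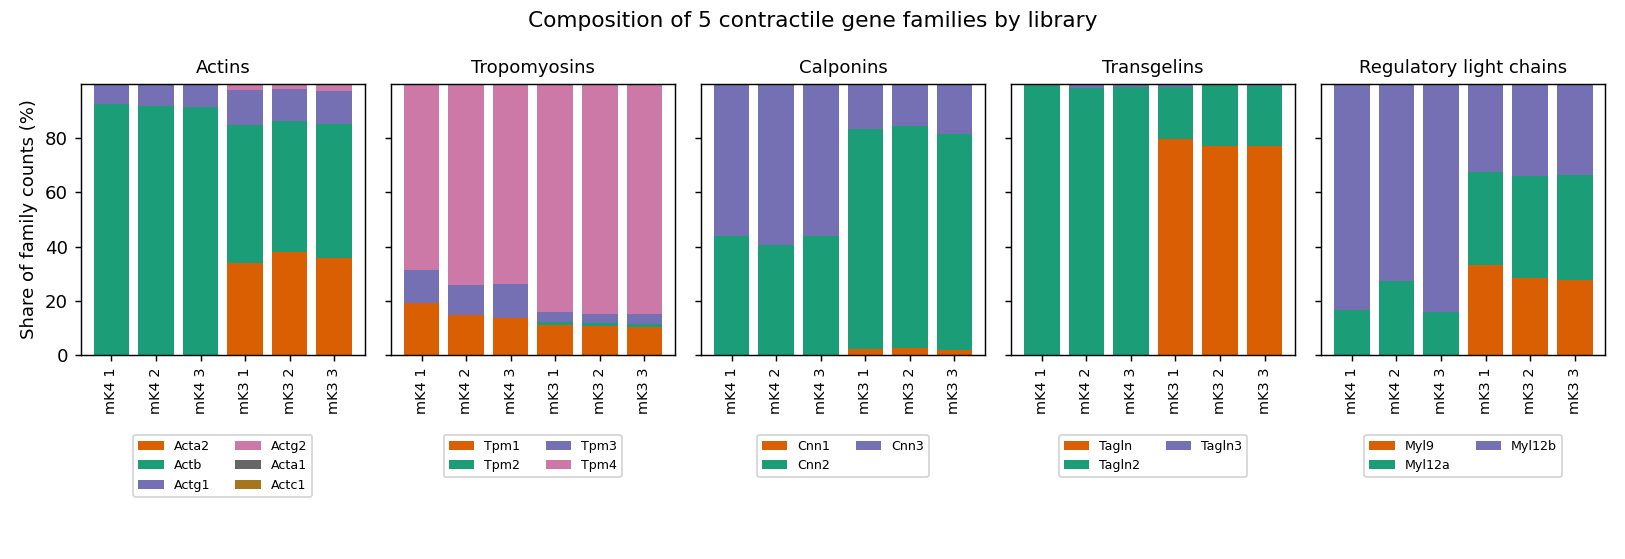
Stacked bars give each gene's share of its family's counts (%, y axis) in every library, 3 of mK4 left of 3 of mK3, for actins, tropomyosins, calponins, transgelins and regulatory light chains. Acta2, Tagln and Myl9 (orange) take visible shares in mK3 and none that can be seen in mK4, where Actb, Tagln2 and Myl12b fill most of their families.

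Of the transcriptional regulators in the set, Srf fell in mK4 and Myocd was not tested. Srf, the DNA-binding factor, had 624, 615 and 749 counts in mK4, against 1380, 1409 and 1803 counts in mK3. Every mK4 library was below every mK3 library. Srf averaged 4.53 ± 0.476 CPM in mK4 and 11.6 ± 2.59 CPM in mK3 (log2 fold change −1.35, SE 0.20, adjusted p = 0.0029, edgeR). Myocd, the cofactor that is mostly restricted to cardiac and smooth muscle, had 0 counts in all mK4 libraries and 141, 535 and 0 counts in mK3. An mK3 library at 0 thus overlapped the mK4 libraries, and Myocd did not pass the filter. Without the filter its adjusted p was 0.101 (edgeR). Without mK3 replicate 3, which is the mK3 library at 0, the adjusted p was 0.0145 (edgeR). Without mK4 replicate 1, 2 or 3 the adjusted p was 0.129 to 0.13 (edgeR).

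The actin-sensing cofactors, which carry the signal from actin assembly to Srf, both fell. Mrtfa was at 27.5 ± 2.01 CPM in mK4 and 81.2 ± 15.1 CPM in mK3 (log2 fold change −1.56, SE 0.16). Mrtfb was at 62.7 ± 7.85 CPM in mK4 and 90.7 ± 9.72 CPM in mK3 (−0.53, SE 0.13), and its call was lost in 4 of 12 alternatives with adjusted p up to 0.0588. Of 15 tested genes of Srf and its partners, 9 fell, 1 rose and 5 did not pass the test. Their median log2 fold change was −0.71, and 19.5% of all tested genes were called lower in mK4 and 20.8% higher. The LIM-domain genes Fhl1 and Fhl2 fell, Fhl1 to 10.4 ± 1.39 CPM in mK4, against 127 ± 59.3 CPM in mK3, and Fhl2 to 485 ± 23.4 CPM in mK4, against 1064 ± 71.5 CPM in mK3. The increase was in Tead1, a partner of the YAP coactivators that binds CATTCC, at 41.7 ± 2.90 CPM in mK4 and 31.9 ± 3.34 CPM in mK3. It was lost in 6 of 12 alternatives, with adjusted p up to 0.105.

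Known Srf targets were read in 2 lists, by the cofactor they are known for. As a background, 19.5% of all tested genes were called lower in mK4 and 20.8% higher. Of 22 cytoskeletal and adhesion genes known as MRTF-Srf targets, all tested, 17 fell, 1 rose and 4 did not pass the test, with a median log2 fold change of −1.22. Ccn2, a matricellular growth factor gene, was at 6.80 ± 0.341 CPM in mK4 and 71.1 ± 0.565 CPM in mK3. Vcl, which encodes the adhesion protein vinculin, was at 474 ± 16.0 CPM in mK4 and 1108 ± 3.20 CPM in mK3. Tuft1 was the 1 gene that rose, to 25.2 ± 4.95 CPM in mK4, against 14.7 ± 0.868 CPM in mK3. Of 7 immediate early genes, which are known to be driven by Srf with the ternary complex factors after growth factor signals, 0 fell, 5 rose and 2 did not pass the test, with a median of 1.70. Fos was at 20.5 ± 3.80 CPM in mK4 and 1.21 ± 0.256 CPM in mK3, Fosb at 10.9 ± 1.21 CPM in mK4 and 0.222 ± 0.0745 CPM in mK3, and Ier2 at 6.21 ± 0.639 CPM in mK4 and 1.91 ± 0.174 CPM in mK3. The difference between these 2 lists was not tested.

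Other genes of smooth muscle differentiation were listed as well, with Cnn1 among them. Of 17 tested, 6 fell, 1 rose and 10 did not pass the test, with a median log2 fold change of −0.84. Ldb3, a Z-line protein gene, fell to 0.18 ± 0.0726 CPM in mK4, against 5.76 ± 0.274 CPM in mK3. The intermediate filament gene Synm rose to 4.26 ± 0.390 CPM in mK4, against 1.82 ± 0.182 CPM in mK3. The smooth muscle markers Smtn and Des did not pass the test. Smtn was at 8.35 ± 0.527 CPM in mK4 and 10.1 ± 1.34 CPM in mK3. Over the 9 lists of actin, myosin, Srf and smooth muscle genes, 97 genes outside the set were listed and 90 tested. Of these, 39 fell, 13 rose and 38 did not pass the test, and their median log2 fold change was −0.51. Beside these counts, 19.5% of all tested genes were called lower in mK4 and 20.8% higher.

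**Figure D3:**
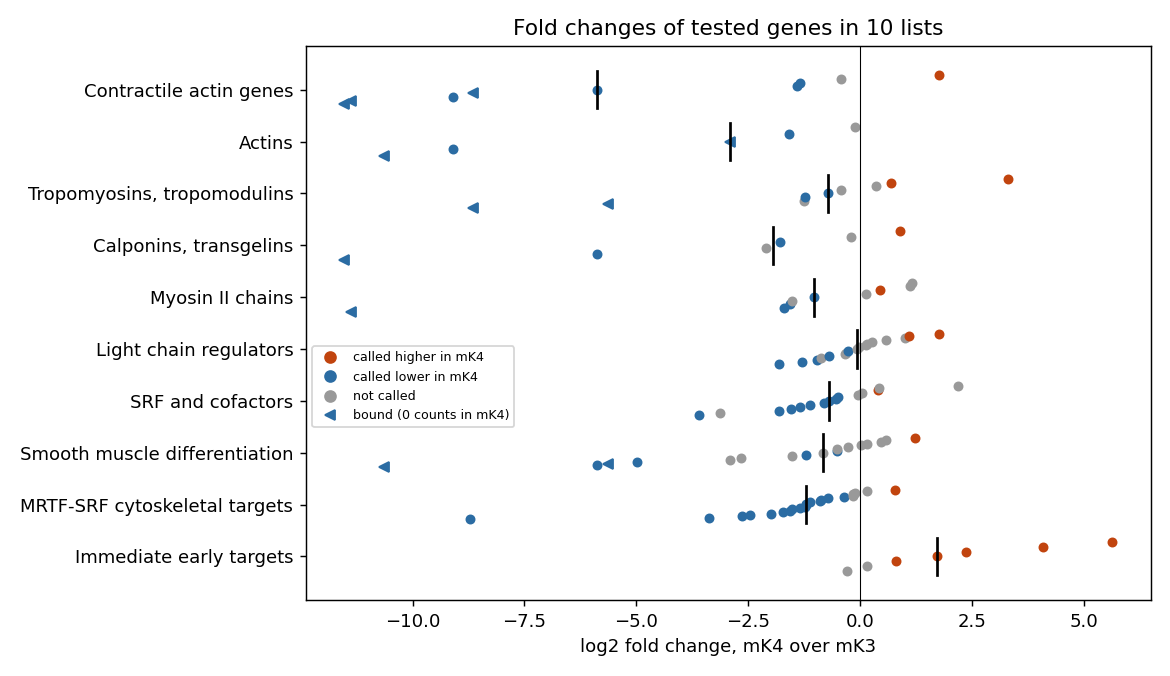
Each point is a tested gene, placed by its log2 fold change of mK4 over mK3 (x axis) in its list (rows), with the contractile actin genes in the top row. Colours give the call, triangles are bounds for genes at 0 in a line and vertical bars are list medians, which run from −5.87 for the contractile actin genes to 1.70 for the immediate early targets.

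Markers of other cell types were read beside these values. Among all tested genes, 19.5% were called lower in mK4 and 20.8% higher. Of 9 tested myofibroblast and stromal genes out of 10 listed, 9 fell in mK4. Their summed level was 1642 to 1744 CPM in the mK4 libraries and 8512 to 9705 CPM in the mK3 libraries. Most of the mK4 sum came from Fn1, at 1211 ± 44.1 CPM in mK4 and 2691 ± 234 CPM in mK3, and Tnc, at 463 ± 8.37 and 1812 ± 105 CPM. Col1a1, in contrast, was at 0.0706 ± 0.0616 CPM in mK4 and 584 ± 130 CPM in mK3. The fibrillar collagen gene Col3a1 was at 4.12 ± 0.245 CPM in mK4 and 707 ± 78.8 CPM in mK3, and the matrix gene Postn at 14.3 ± 1.12 CPM in mK4 and 617 ± 37.5 CPM in mK3. Of 7 tested pericyte and mesangial genes, 4 fell and 0 rose, with sums of 63.9 to 71.9 CPM in mK4 and 254.7 to 318 CPM in mK3. Pdgfrb fell to 51.2 ± 2.63 CPM in mK4, against 192 ± 10.9 CPM in mK3. Notch3 fell to 8.80 ± 0.994 CPM in mK4, against 59.8 ± 16.6 CPM in mK3. Cspg4 was at 0.0263 ± 0.0455 CPM in mK4 and 13.8 ± 3.76 CPM in mK3, and Mcam at 4.53 ± 0.576 and 11.1 ± 0.191 CPM. Itga8, Gata3 and Des did not pass the test, with Des at 1.22 ± 0.211 CPM in mK4 and 0.889 ± 0.250 CPM in mK3. Among the listed genes not tested, the pericyte genes Kcnj8 and Abcc9 were at 0 in all 6 libraries. Rgs5, a pericyte gene also not tested, had 71, 0 and 71 counts in mK3 and 0 in every mK4 library. The smooth muscle channel gene Kcnmb1 was at 0 in all libraries. Of 20 skeletal and cardiac muscle genes, 10 were at 0 in all 6 libraries and 4 could be tested, none of which was called at an adjusted p under 0.05. Of 8 leukocyte genes, 3 could be tested and none was called, with sums of 3.29 to 4.74 CPM in mK4 and 1.85 to 3.52 CPM in mK3. Of 4 tested endothelial genes 2 fell and 1 rose, the increase being Cdh5 at 7.35 ± 0.402 CPM in mK4 and 0 in mK3. The decreases were Kdr, at 0 in mK4 and 1.44 ± 0.310 CPM in mK3, and Tek, at 0 in mK4 and 1.78 ± 0.392 CPM in mK3. The part of stromal or pericyte-type gene expression in the values of the contractile actin genes was not tested.

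The genes whose levels followed Acta2 most closely over the 6 libraries were taken by Euclidean distance of log2 CPM among protein-coding genes, a measure that also asks for a similar CPM and is not per length. They were Cdh11 (distance 1.75), Bgn (2.75), Ifi202b (2.93), Sema3d (2.94) and Fam129a (3.21). Cdh11, a mesenchymal cadherin gene, was at 2.05 ± 1.87 CPM in mK4 and 437 ± 24.6 CPM in mK3. Its mK4 libraries had 173, 636 and 104 counts, and as for Acta2 the second of them was the highest and the third the lowest. The choice by distance over these same libraries favours such a shared order. Bgn, which encodes the matrix proteoglycan biglycan, was at 0.378 ± 0.0614 CPM in mK4 and 335 ± 27 CPM in mK3. No other contractile actin gene was among the 5.

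The miRNAs of the miR-143/145 cluster, known as Srf- and myocardin-driven miRNAs of smooth muscle, were measured in the same libraries and had a fit of their own. Of 461 tested miRNAs, 35.1% were called lower in mK4 and 32.5% higher. miR-145a-5p had 61, 63 and 84 counts in mK4, against 7724, 8561 and 7827 counts in mK3, or 12.8 ± 3.46 CPM of miRNA counts in mK4 and 1755 ± 65.0 CPM in mK3 (log2 fold change −7.13, SE 0.19, adjusted p = 9.63e-14, edgeR). miR-143-3p had 4181, 3115 and 2015 counts in mK4, against 448238, 458196 and 387071 counts in mK3 (−7.23, SE 0.68, adjusted p = 0.000381, edgeR). The passenger arms miR-145a-3p and miR-143-5p fell as well, at −6.50 (SE 0.26) and −6.70 (SE 0.30) on the log2 scale. Leaving out mK4 replicate 1 moved miR-143-3p to −7.88, and leaving out mK4 replicate 3 moved miR-143-5p to −7.67. For each of the 4 arms the lines did not overlap, which was so for 70.9% of all tested miRNAs. The sources used here do not say how reads were assigned to miRNAs.

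Of the 10 listed muscle-associated miRNAs 9 could be tested, and 7 fell, 1 rose and 1 did not pass the test. The remaining decreases were small, as for miR-21a-5p at −0.80 (SE 0.14) on the log2 scale. miR-1a-3p, a muscle miRNA, rose to 5.61 ± 4.54 CPM of miRNA counts in mK4, against 1.85 ± 1.18 CPM in mK3 (log2 fold change 1.65, SE 0.61). The lines overlapped at this low level, and its call was lost in 3 of 12 alternatives with adjusted p up to 0.285, and the log2 fold change was 0.72 without mK4 replicate 2 and 2.33 without mK3 replicate 1. Carmn, the long noncoding RNA whose span holds the miR-143/145 cluster, was looked up after the values of these miRNAs were seen. It had 21, 93 and 93 counts in mK4, against 1851, 1412 and 1560 counts in mK3 (log2 fold change −4.70, SE 0.56, adjusted p = 0.00114, edgeR).

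**Figure D4:**
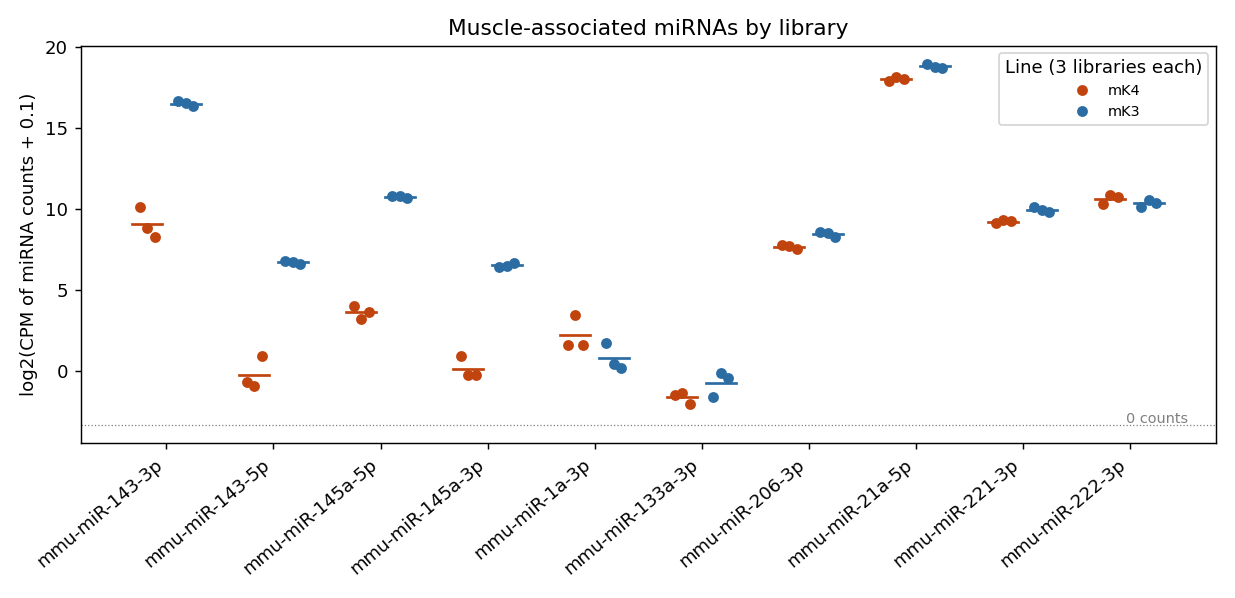
Each point is 1 library, 3 of mK4 (orange, left) and 3 of mK3 (blue, right), with log2(CPM of miRNA counts + 0.1) on the y axis, muscle-associated miRNAs on the x axis and a bar at the mean. Both arms of miR-143 and of miR-145a lie far lower in mK4, while differences of the other 6 are smaller and go in both directions.

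Open chromatin was read from the authors' peak lists, which held 34710 peaks for mK4 and 22477 for mK3 on named chromosomes. With 1 library per line there is no replicate and no test, and the fold enrichment and −log10 q of a peak are the authors' values. The peak lists differ in length, and the read depth behind them is unknown, so a missing peak says that none was called. A peak near an annotated start was listed in mK3 alone for 3 of the 10 genes (Acta2, Tagln and Myl9), in mK4 alone for 1 (Mylk), in both lines for 4 (Tpm1, Tpm2, Cald1 and Srf) and in neither for 2 (Cnn1 and Myocd). The start peaks of Tpm2 were different peaks in the lines and did not overlap. Among all genes with a start peak in mK3, 8.24% had none called in mK4, and among those with a start peak in mK4, 17.7% had none called in mK3. The same shares were 13.3% among genes called lower in mK4 and 23.9% among genes called higher.

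The mK3 peak at Acta2 (chr19:34255215-34255899) had a fold enrichment of 3.05 and a −log10 q of 4.93, and it covers the whole promoter printed above with its near-CArG boxes. A further Acta2 peak within the gene was listed in both lines, at 4.62-fold in mK4 and 3.34-fold in mK3. The mK3 peak at Tagln (chr9:45935883-45936128) had a fold of 3.30 and a −log10 q of 5.49, at the end of the gene span away from Pcsk7; no promoter entry gave the start. The mK3 peak at Myl9 (chr2:156775004-156775390) had a fold of 3.50 and a −log10 q of 4.99 and covers the exact CArG box of the printed sequence. These 3 peaks were weak for the mK3 list, whose median −log10 q was 9.76, and at a −log10 q of at least 10 none of them remained.

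At Mylk the peaks were listed in mK4 alone. They lay at both annotated starts, at chr16:34745059-34745315 with a fold of 5.45 and at chr16:34784753-34784996 with a fold of 5.27, and 3 more lay within the gene with folds of 4.54 to 8.17. The second of the start peaks covers the CATTCC in the printed sequence. This was the 1 gene of the set that rose, and the 1 with peaks in mK4 alone.

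The genes with start peaks in both lines were those with smaller differences in counts, other than Tpm2. Srf had the highest start peak of the set in each line, 8.09-fold in mK4 and 5.50-fold in mK3, and both cover the printed CArG boxes. Tpm1 had a start peak of 5.39-fold in mK4 and 4.81-fold in mK3. Cald1 had one of 6.88-fold in mK4 and 4.36-fold in mK3 at its upstream start, while at its internal start a peak of 3.26-fold (chr6:34709150-34709618) was listed in mK3 alone. At Tpm2, a gene with 0 counts in mK4, a peak inside the gene overlapped between the lines, at 5.76-fold in mK4 and 3.63-fold in mK3. Its edge lay just inside the 1 kb limit in mK4 and just outside it in mK3. A second Tpm2 peak, 624 bases before the start, was listed in mK3 alone at 2.92-fold. Peaks at the set numbered 23 in mK4 and 18 in mK3. Of these, 13 in mK4 and 8 in mK3 overlapped no peak of the other line. No such share was computed over all peaks, and the mK4 list was the longer. The counts are therefore not a result about these genes.

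**Figure D5:**
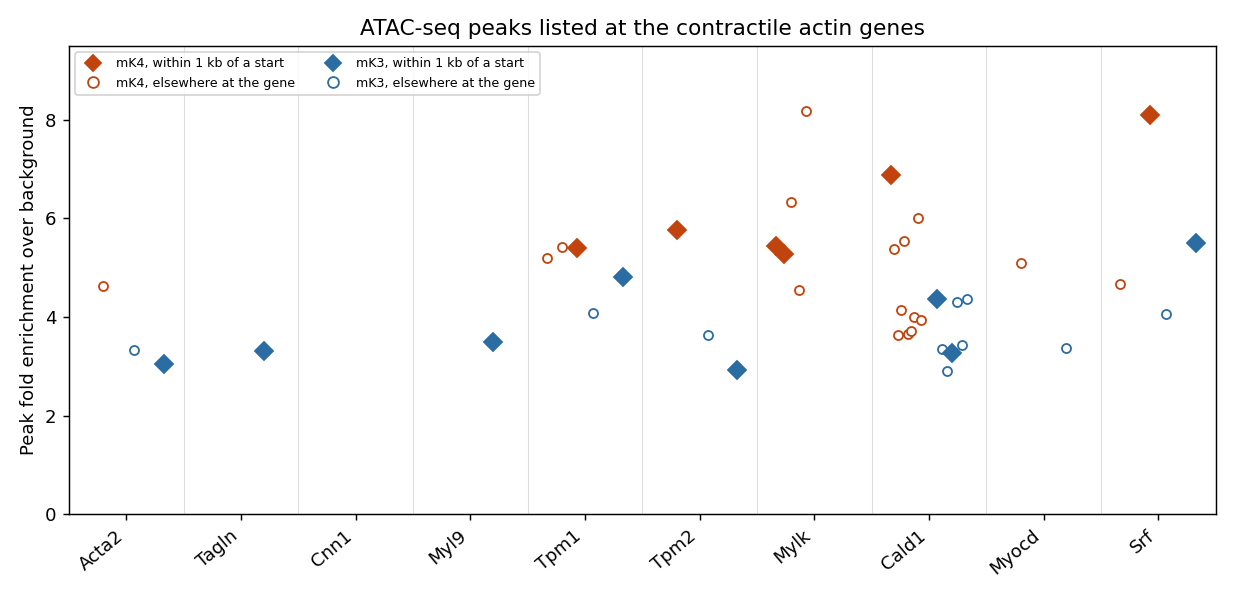
Each symbol is an ATAC-seq peak that the authors listed at a contractile actin gene (x axis), placed by its fold enrichment over background (y axis), with mK4 peaks (orange) left of mK3 peaks (blue) and filled diamonds for peaks within 1 kb of a start. Sideways spread only separates symbols; start peaks are seen in mK3 alone at Acta2, Tagln and Myl9 and in mK4 alone at Mylk.

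RefSeq promoter sequences were on hand for 8 of the 10 genes, all but Tagln and Myocd. The 250 bases before the start were searched on both strands for the CArG box, which is a pair of C, a run of A or T and a pair of G. An exact box was found in 2 of the 8, Myl9 at position −161 from the start and Srf at −82 and −62, and in 1.47% of all 32851 promoters. With up to 1 mismatch 5 of the 8 held a box, against 18.6% of all promoters, and in Acta2 these lay at −84 and −34. The TEAD motif CATTCC was found in 4 of the 8 (Acta2, Cald1, Tpm1 and Mylk), against 12.6% of all promoters, and it overlapped no CArG box in them. A match describes letters in the window and is not a measured binding site.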

How the data were processed

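RNA was sequenced from 3 libraries of each line, and ATAC-seq, which marks open chromatin by transposase insertion, was done on 1 library of each. The authors deposited raw read counts per feature for all RNA libraries in 1 table. HTSeq 2.0.2, STAR 2.7.10a, MACS3, Bowtie2, deepTools, SAMtools and bedtools are named per the submitters' processing notes, with build mm10. Not given in the sources used here are the step that each tool did, the strand setting of the counting, the handling of reads that match several genes and how peaks were called. The authors' deposited peak lists hold, for every peak, the fold enrichment as a ratio, −log10 p, −log10 q and a whole-number score. The fold and the −log10 q were used as deposited, in the column order of the narrowPeak format.

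Gene counts were analysed with edgeR 4.0.16 in R 4.3.3 (filterByExpr, TMM scaling, robust glmQLFit, glmQLFTest), mK4 against mK3, with Benjamini-Hochberg adjustment over all 20405 tested genes and calls at an adjusted p under 0.05. The 461 tested miRNAs had a fit of their own. The SE of a log2 fold change was its absolute value over the square root of the test's F statistic. It is an approximation, as the quasi-likelihood test itself gives no SE. CPM values (counts scaled to library size) were computed within each class after scaling and are not divided by gene length. Both fits were tested on simulated counts. No total or unassigned row was in the table, and the text uses no circular RNA value. Shares of a gene family were compared with an exact permutation test over samples. A count of 0 was given a floor of 3 counts per library, which covers counting error only.

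Peaks were kept where they lay on a named chromosome of the assembly, and were assigned to a gene from 5 kb before its start to 1 kb past its end. A start peak had an edge within 1 kb of an annotated start (either end of the span for Tagln and Myocd, which had no promoter entry). Positions and promoter sequences came from RefSeq (GRCm38.p6, the assembly of mm10). Python 3.11.15, pandas 2.3.3, NumPy 2.4.6 and matplotlib 3.10.9 were used for these steps and the figures.

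The 10 genes and all gene lists were chosen with earlier results of these data known. Named genes were all 10, every actin, tropomyosin, calponin and transgelin, Mrtfa and Mrtfb, up to 3 called genes per list and direction with the smallest adjusted p, and the 5 protein-coding genes nearest to Acta2. A gene that this rule names is not reported here. Genes named outside this rule are marked as such or given as markers. Alternatives were another scaling (RLE or none), no filter or at least 1 CPM in all libraries, DESeq2 1.42.0, a replicate block, each library left out, a −log10 q of at least 10, a window of 20 kb, a 50% overlap and 1 mismatch in a motif. Same-numbered libraries of the lines did not deviate together (correlations of −0.019, 0.021 and 0.007), so the numbers were not taken as pairs.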

Additional observations from a re-analysis of the deposited data

How the results depend on the processing

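No log2 fold change changed sign among the contractile actin genes and the other genes and miRNAs carried through the alternatives, which did not include every gene named. Among the contractile actin genes, Acta2, Tagln, Myl9, Tpm2, Mylk, Cald1 and Srf kept their calls wherever they were tested. With at least 1 CPM in all libraries, 2 of them were called lower, because 5 of the 7 were then not tested. The Cnn1 call was lost with no filter on low counts (log2 fold change −5.86) and over left-out libraries its log2 fold change ran from −12.36 to −5.28. Tpm1 was called lower by DESeq2 (−0.45), and over left-out libraries it ran from −0.64 to −0.31. With the replicate block, 3129 genes were called lower and 3281 higher, 6 contractile actin genes were lower and 1 higher, and Cnn1 (−7.66) lost its call; the numbers are not a known pairing. With no scaling beyond library size the median over all tested genes shifted by 0.11 (log2) and over miRNAs by 0.20; over miRNAs it also shifted by 0.16 with no filter and by 0.10 with at least 1 CPM. At a −log10 q of at least 10, start peaks were in mK4 alone at 3 genes, in mK3 alone at 0, in both at 2 and in neither at 5, and 5 mK3 peaks were left, 1 without an overlap. With windows of 20 kb, mK4 peaks numbered 37, of which 21 had no overlap, again without a background over all peaks. With 1 mismatch, 5 genes held a CArG box. The cause of these differences was not tested. Shares per coding length were not run, since no lengths were given. Genes near the floor of 3 counts (at most 0.022 CPM in mK4 and 0.0242 CPM in mK3) cannot be told from absent, and 1 ATAC-seq library per line gives no error.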
